A study of Mus musculus with 24 samples.

Results

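The Akr1b and Akr1c genes of mouse liver were taken from the deposited expression table by gene symbol. The 10 genes, Akr1b3, Akr1b7, Akr1b8, Akr1c6, Akr1c12, Akr1c13, Akr1c14, Akr1c18, Akr1c19 and Akr1c20, are 10 of the 37583 genes in the table, and all 10 were among the 16471 genes tested. The study compared livers of Smyd3-deficient and wild-type mice with and without diethylnitrosamine (DEN), a liver carcinogen used to bring on hepatocellular carcinoma in mice. RNA was sequenced from 12 livers, 3 in each of 4 groups: DEN-treated Smyd3 knockout (DEN_KO), DEN-treated wild type (DEN_WT), untreated Smyd3 knockout (KO) and untreated wild type (WT).

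All mice were killed at 8.5 months and carry the strain label C57BL6/CBA, while the housing protocol names C57Bl6. DEN was given as 1 intraperitoneal dose of 25 mg/kg. The knockout is present in every tissue and comes from a gene trap in intron 5 of Smyd3, a histone and protein lysine methyltransferase, so exons upstream of the trap can still be read. The labels number 1 mouse per RNA library. Whether tumour or surrounding tissue was sampled is not given in the sources used here. Region lists from chromatin immunoprecipitation came from DEN-treated livers: H3K4me3, the trimethyl mark of active gene starts, in DEN_KO and in DEN_WT, and Smyd3 itself in DEN_WT, with 2 replicates behind each list.

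Aldo-keto reductases reduce aldehydes and ketones to alcohols with NADPH. The Akr1b enzymes act mainly on sugars and lipid-derived aldehydes, and Akr1b3 is aldose reductase, which turns glucose into sorbitol. The Akr1c enzymes are hydroxysteroid dehydrogenases that switch steroid hormones between active and inactive forms, and in the liver they also handle bile acid precursors, prostaglandins and foreign carbonyl compounds. Both families lie in tandem arrays of related copies, and where copies are alike in sequence their reads can be hard to assign.

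In mm9, the build of the files, the Akr1b array spanned 119209 bases at chr6:34253934-34373142 and the Akr1c array 474334 bases at chr13:4048257-4522590. The Akr1b order along the chromosome was Akr1b3 (reverse strand, chr6:34253934-34267497), Akr1b8 (forward, chr6:34304119-34318463) and Akr1b7 (forward, chr6:34362334-34373142), with Akr1b10 between Akr1b8 and Akr1b7. The Akr1c order was Akr1c14 (forward, chr13:4048257-4089668), Akr1c18 (reverse, chr13:4131861-4149900), Akr1c13 (forward, chr13:4190430-4204842), Akr1c19 (forward, chr13:4227946-4247927), Akr1c12 (reverse, chr13:4267418-4278679), Akr1c6 (forward, chr13:4433552-4456776) and Akr1c20 (reverse, chr13:4486218-4522590). The table annotates all 10 as protein-coding. Exon structure was not used here.

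Sequence upstream of the start was available for 8 of the 10 genes from RefSeq (GRCm38.p6, 250 bases before each start), Akr1b3 and Akr1c20 being the others. RefSeq starts need not be those of the table: by the spacing from Akr1c13 (Akr1b8 for Akr1b7) within each build, the RefSeq start lay 10577 bases further into Akr1c14 and 5037 further into Akr1c19, and at most 37 further in the other genes compared in this way. Akr1c12 and Akr1c13 are shown because they were the most alike: aligned, the windows were identical at 235 of 254 positions (92.5%), against 58.7% for the next pair, Akr1c13 and Akr1c19. Capitals mark bases that differ between the pair or have no partner in the other. The windows lie at chr13:4279400-4279649 (reverse strand) and chr13:4190937-4191186 (forward strand).
Akr1c12: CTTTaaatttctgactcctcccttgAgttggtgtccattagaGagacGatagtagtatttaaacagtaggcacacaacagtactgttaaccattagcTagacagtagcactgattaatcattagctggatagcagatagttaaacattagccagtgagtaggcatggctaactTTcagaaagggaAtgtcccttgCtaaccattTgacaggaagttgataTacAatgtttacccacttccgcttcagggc
Akr1c13: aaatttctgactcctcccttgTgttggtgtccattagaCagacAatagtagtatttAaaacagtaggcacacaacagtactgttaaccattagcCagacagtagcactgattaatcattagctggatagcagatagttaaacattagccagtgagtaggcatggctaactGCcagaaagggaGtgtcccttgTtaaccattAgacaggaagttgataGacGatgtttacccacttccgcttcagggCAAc
These windows lie upstream of the starts, and transcript sequences were not compared here. If the transcripts are as alike, reads could have been split or shared in the authors' counting. Single values of Akr1c12 and Akr1c13, and possibly of other Akr1c genes, are therefore to be read with care.

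Akr1c18 is shown because its values spread most widely between the groups, and Akr1b8 because it alone held letters reported as bound by human SMYD3. Both strands of the 8 windows were searched for TGACNNNGC (the core of the antioxidant response element), TGANTCA (AP-1), CCCTCC (the SMYD3 letters) and TATAAA (the TATA box). Capitals mark matches. The Akr1c18 window (chr13:4150647-4150896, reverse strand) held none of the 4, and the Akr1b8 window (chr6:34353896-34354145, forward strand) held CCCTCC at 2 places and TATAAA at 1, all on the opposite strand.
Akr1c18: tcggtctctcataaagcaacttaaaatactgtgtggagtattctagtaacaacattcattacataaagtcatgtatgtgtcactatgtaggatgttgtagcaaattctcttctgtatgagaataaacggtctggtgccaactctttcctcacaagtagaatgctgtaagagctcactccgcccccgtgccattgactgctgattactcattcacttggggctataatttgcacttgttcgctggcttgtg
Akr1b8: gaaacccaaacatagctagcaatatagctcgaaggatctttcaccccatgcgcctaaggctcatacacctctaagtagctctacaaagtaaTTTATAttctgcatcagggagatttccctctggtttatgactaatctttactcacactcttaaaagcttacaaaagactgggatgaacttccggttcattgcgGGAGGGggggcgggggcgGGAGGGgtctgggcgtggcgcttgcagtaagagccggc
Over all 32851 RefSeq windows of this length, 10.2% held TGACNNNGC, 6.75% TGANTCA, 35.2% CCCTCC and 12.4% TATAAA. Among the 8 windows, including those of Akr1c14 and Akr1c19 at the inner starts, 0 held TGACNNNGC or TGANTCA, 1 held CCCTCC and 2 held TATAAA (Akr1b8 and Akr1c6).

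The deposited numbers are the authors' normalized read counts in whole numbers, and they are called values here. Library sums ran from 22320634 to 28973396, and the correlation within a group was 0.956 to 0.978. Smyd3 had values of 12, 3 and 8 in DEN_KO, 57, 71 and 74 in DEN_WT, 29, 17 and 22 in KO and 79, 89 and 59 in WT, so the knockout libraries lay below the wild-type libraries in both pairs. The DEN_KO against DEN_WT log2 fold change of Smyd3 was -3.13 (limma adjusted p = 0.000182), and the untreated difference of -1.71 missed the threshold (adjusted p = 0.0651).

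Marker genes of several cell types moved with the groups, and their part in the results below was not tested. Beside the counts given here, 16.1% of all tested genes were higher and 13.5% lower in DEN_WT against WT. The 8 hepatocyte markers summed to 1741106 to 2623084 in DEN_KO, 3024164 to 4626427 in DEN_WT, 1816787 to 3137075 in KO and 2115055 to 2330914 in WT, with 1 higher (Apoa1) and 2 lower (Cps1 and Fah) in DEN_WT against WT. Alb had the largest values in this sum, at 2081265 to 3386204 in DEN_WT and 1277821 to 1549787 in WT. Its own log2 fold change in DEN_WT against WT did not pass (0.90, limma adjusted p = 0.426). The 9 cholangiocyte markers summed to 603 to 882 in DEN_KO, 965 to 1234 in DEN_WT, 613 to 869 in KO and 544 to 727 in WT, with 2 of 7 tested higher in DEN_WT against WT. The 7 stellate cell and fibroblast markers summed to 2898 to 3266 in DEN_KO, 3484 to 7336 in DEN_WT, 2379 to 3325 in KO and 3199 to 3616 in WT, with 4 higher and 1 lower in DEN_WT against WT. The 7 macrophage markers summed to 7360 to 10972 in DEN_KO, 2354 to 8806 in DEN_WT, 5018 to 5578 in KO and 4430 to 4736 in WT, with 0 of 7 past the threshold in DEN_WT against WT. The 6 endothelial markers summed to 5814 to 6682 in DEN_KO, 5517 to 5905 in DEN_WT, 4464 to 4929 in KO and 3923 to 5084 in WT, with 4 higher. Intestinal markers summed to at most 2402 and exocrine pancreas markers to at most 25 in any library, each list with 1 gene higher in DEN_WT against WT. None of these markers was at 0 in all 12 libraries. In bulk liver, fewer cells of a type and less RNA per cell cannot be told apart.

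Most of these genes differed between DEN-treated and untreated wild-type liver. Akr1b3, Akr1b7 and Akr1c18 rose in DEN_WT against WT, Akr1c6, Akr1c12, Akr1c14, Akr1c19 and Akr1c20 fell, and Akr1b8 and Akr1c13 did not pass the test (limma, adjusted p under 0.05). That is 3 of 10 higher and 5 of 10 lower, beside 16.1% of all tested genes higher and 13.5% lower. Akr1b7 and Akr1c18 passed the filter on low values only through DEN-treated libraries, so a difference was needed for them to be tested at all. The median log2 fold change was -0.45 over the 10 genes and -0.02 over all tested genes. The share of higher among all called genes was 54.5%, and it became 84.3% when values were divided by the library sum without the 10 highest genes. Quantile normalization gave 48.0%.

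**Figure D1:**
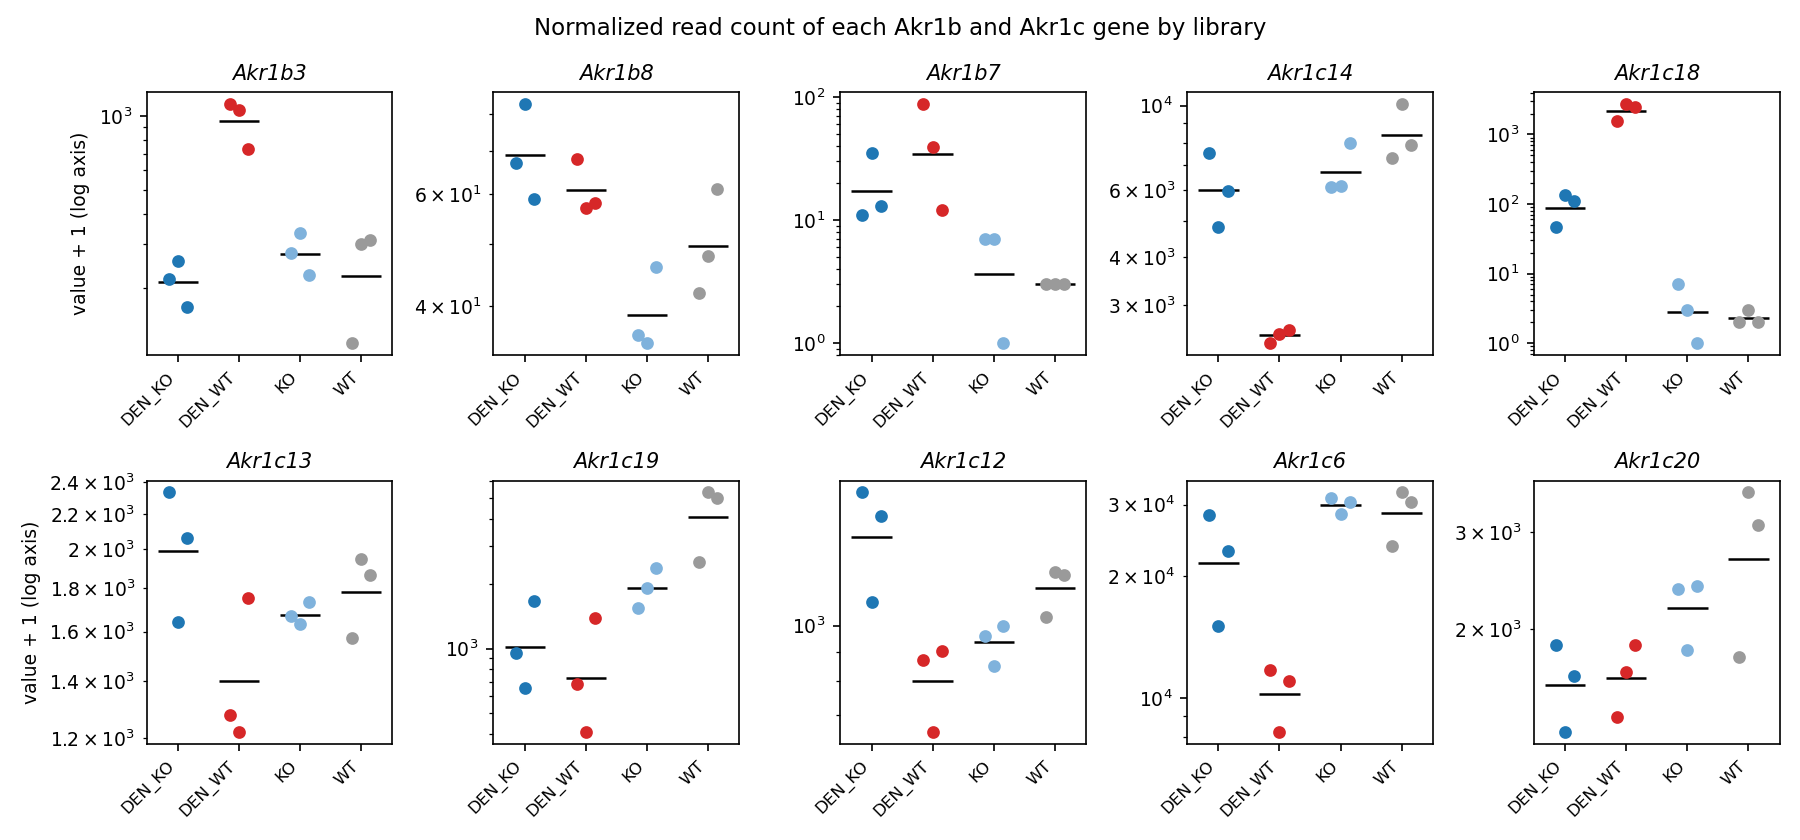
Each panel plots 1 gene, with the normalized value + 1 of every library on a log axis whose range differs between panels, and the 4 groups from left to right. Points are single libraries and bars are the means on the log scale (n = 3). Akr1c18 and Akr1b3 stood highest in DEN_WT, and Akr1c14 and Akr1c6 stood lowest there.

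Akr1c18, the hydroxysteroid dehydrogenase that inactivates progesterone, had values of 46, 132 and 111 in DEN_KO, 1580, 2745 and 2464 in DEN_WT, 6, 2 and 0 in KO, and 1, 2 and 1 in WT. Every DEN_WT library lay above every DEN_KO library, and every DEN_KO library above all 6 untreated ones. Group means were 96.3 ± 44.8 in DEN_KO, 2263 ± 608 in DEN_WT, 2.67 ± 3.06 in KO and 1.33 ± 0.577 in WT (SD, n = 3). In DEN_WT against WT the fitted log2 fold change was 9.91 ± 0.59 (SE; adjusted p = 4.21e-07). Because the WT values are close to 0, this size depends on the pseudocount: it was 7.89 with a pseudocount of 8.

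The adrenal cortex and the ovary are the tissues best known for Akr1c18, and the adrenal cortex for Akr1b7, so adrenal markers were read beside these genes. Of the genes that define that tissue, Cyp11b1 had at most 3, Cyp11b2 at most 5 and Mc2r at most 2 in any library. Nr5a1 had at most 6, and Cyp11a1 at most 16, in a DEN_KO library. The 7 markers together summed to 63 to 158 in DEN_KO, 49 to 156 in DEN_WT, 76 to 163 in KO and 52 to 87 in WT, most of it from Cyp21a1 and Star. Of the 2 adrenal markers with enough signal to test, 0 passed the threshold in DEN_WT against WT or in DEN_KO against DEN_WT.

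Akr1b3, aldose reductase, had values of 217, 255 and 166 in DEN_KO, 1118, 1054 and 734 in DEN_WT, 275, 334 and 225 in KO, and 118, 300 and 312 in WT. The DEN_WT libraries lay above all 9 others, whose ranges overlapped one another. The first WT library was the lowest of the 12. Means were 213 ± 44.7 in DEN_KO, 969 ± 206 in DEN_WT, 278 ± 54.6 in KO and 243 ± 109 in WT. The rise in DEN_WT against WT was 2.09 ± 0.33 on the log2 scale (adjusted p = 0.000469), and it stayed between 1.64 and 2.48 over 20 alternative settings.

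Akr1b7, a reductase of lipid aldehydes first described in the vas deferens, had 10, 34 and 12 in DEN_KO, 87, 38 and 11 in DEN_WT, 6, 6 and 0 in KO and 2, 2 and 2 in WT. Both DEN-treated groups lay above both untreated ones, and the DEN_KO and DEN_WT ranges overlapped. These are low values with a wide spread within DEN_WT. In DEN_WT against WT the log2 fold change was 3.53 ± 0.83 (adjusted p = 0.00611). It was 2.85 without DEN_WT replicate 1, 4.29 without DEN_WT replicate 3 and 2.13 with a pseudocount of 8.

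Akr1b8, a reductase of aldehydes that fibroblast growth factor induces in cultured mouse cells, varied least of the Akr1b genes in the DEN_WT against WT comparison. Its values were 66, 82 and 58 in DEN_KO, 67, 56 and 57 in DEN_WT, 35, 34 and 45 in KO and 41, 47 and 60 in WT. The DEN_WT and WT ranges overlapped, and the log2 difference was 0.29 ± 0.26 (adjusted p = 0.431). Its sign turned with quantile normalization (-0.12).

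Akr1c14, which reduces the ketone of dihydrotestosterone and other steroids, had 7518, 4814 and 5972 in DEN_KO, 2384, 2525 and 2588 in DEN_WT, 6123, 6174 and 7970 in KO and 7298, 10102 and 7898 in WT. The DEN_WT libraries were the 3 lowest of the 12, and the other 3 groups overlapped one another. Means were 6101 ± 1357 in DEN_KO, 2499 ± 105 in DEN_WT, 6756 ± 1052 in KO and 8433 ± 1476 in WT. Akr1c14 fell by 1.74 on the log2 scale in DEN_WT against WT (SE 0.19, adjusted p = 3.38e-05).

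Akr1c6, the hydroxysteroid dehydrogenase that interconverts androstenedione and testosterone and acts on oestrogens, had 28321, 15078 and 23043 in DEN_KO and 11750, 8255 and 10983 in DEN_WT. The untreated values were 31154, 28511 and 30509 in KO and 23655, 32139 and 30486 in WT. The DEN_WT libraries again were the 3 lowest, and the other groups lay above them without overlap. The log2 fold change in DEN_WT against WT was -1.48 ± 0.25 (adjusted p = 0.000688).

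Akr1c19, a dehydrogenase of hydroxysteroids and other alcohols, had 957, 652 and 1660 in DEN_KO, 683, 410 and 1385 in DEN_WT, 1548, 1913 and 2362 in KO and 2529, 5306 and 5011 in WT. The WT libraries lay above all others. The DEN_WT libraries lay below both untreated groups, while DEN_KO overlapped DEN_WT and KO. Its log2 fold change in DEN_WT against WT was -2.48 ± 0.42 (adjusted p = 0.000804), the most negative of the 10 genes in that comparison.

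Akr1c12, Akr1c13 and Akr1c20, related dehydrogenases of steroids and foreign alcohols, moved less. Akr1c12 had 1703, 1097 and 1550 in DEN_KO, 869, 653 and 902 in DEN_WT, 958, 851 and 999 in KO and 1036, 1237 and 1225 in WT. The DEN_WT libraries of Akr1c12 lay below the WT libraries, and the log2 fold change was -0.54 ± 0.19 (adjusted p = 0.0432). Akr1c13 had 2332, 1642 and 2059 in DEN_KO, 1275, 1219 and 1753 in DEN_WT, 1670, 1633 and 1735 in KO and 1571, 1948 and 1863 in WT, and its DEN_WT and WT ranges overlapped (-0.35, adjusted p = 0.146).

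Akr1c20 had 1868, 1303 and 1644 in DEN_KO, 1385, 1669 and 1871 in DEN_WT, 2361, 1835 and 2391 in KO and 1781, 3536 and 3089 in WT. The DEN_WT and WT ranges overlapped through the first WT library, with a log2 fold change of -0.72 ± 0.24 (adjusted p = 0.0356). The calls of Akr1c12 and Akr1c20 in DEN_WT against WT were fragile. That of Akr1c12 was lost without DEN_KO replicate 3, DEN_WT replicate 1 or 2, KO replicate 1, or WT replicate 2 or 3 (adjusted p = 0.0532 to 0.168), and that of Akr1c20 without DEN_WT replicate 1 or 2 or WT replicate 2 or 3 (adjusted p = 0.0696 to 0.151). Another 5 settings ended each of them.

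Summed over the 6 Akr1c genes other than Akr1c18, the values were 42699, 24586 and 35928 in DEN_KO, 18346, 14731 and 19482 in DEN_WT, 43814, 40917 and 45966 in KO and 37870, 54268 and 49572 in WT. The DEN_WT sum was 0.371 times the WT sum on average. Akr1c6 contributed most of these reads, and the sums are given with no test. The 3 Akr1b genes summed to 293, 371 and 236 in DEN_KO, 1272, 1148 and 802 in DEN_WT, 316, 374 and 270 in KO and 161, 349 and 374 in WT, of which Akr1b3 gave most. In both sums DEN_WT lay apart from the other 3 groups, on opposite sides.

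**Figure D2:**
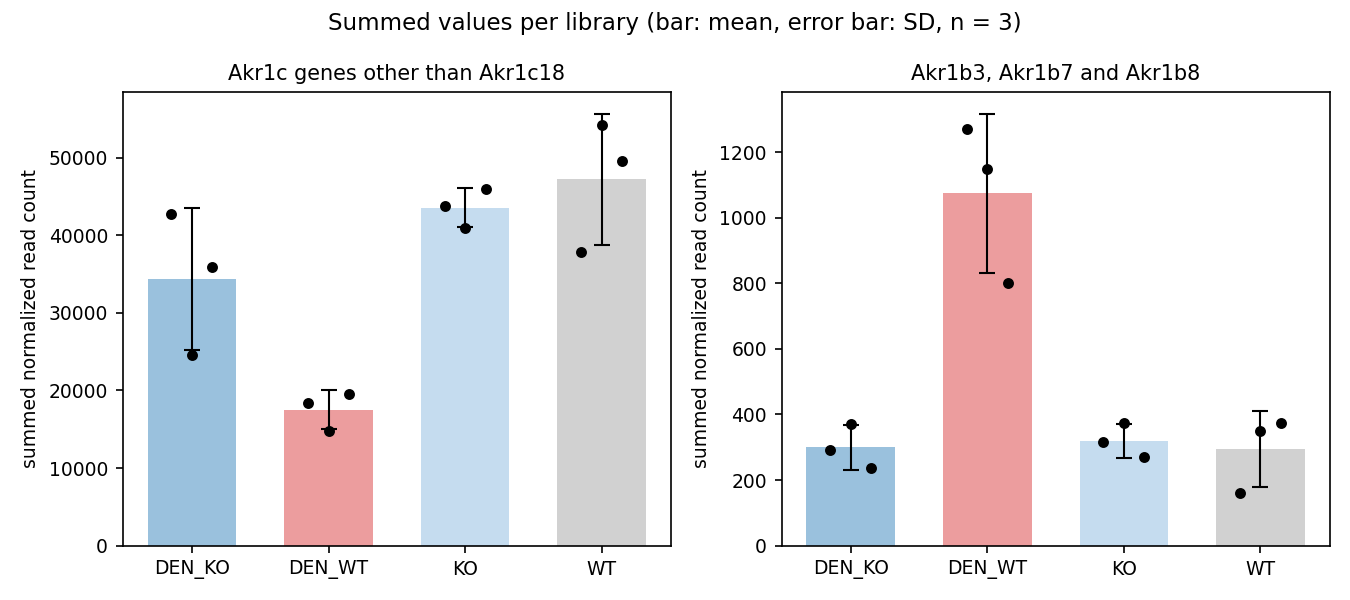
Summed normalized read count per library for the Akr1c genes other than Akr1c18 (left panel) and the Akr1b genes (right panel). Bars are means, error bars SD (n = 3) and points single libraries. The DEN_WT libraries sit between 14731 and 19482 on the left, below every other library, and between 802 and 1272 on the right, above every other library.

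The comparison of DEN_KO with DEN_WT asks what Smyd3 loss changes in livers exposed to the carcinogen. Akr1c6, Akr1c12, Akr1c13 and Akr1c14 were higher and Akr1b3 and Akr1c18 lower in DEN_KO, which makes 4 of 10 higher beside 16.4% of all tested genes and 2 of 10 lower beside 17.4%. The other 4 genes did not pass the threshold. The comparison shares the DEN_WT libraries with the one above, so opposite signs in the 2 comparisons are not independent. The median log2 fold change was 0.33 over the 10 genes and -0.06 over all tested genes.

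For Akr1c18 the DEN_KO against DEN_WT log2 fold change was -4.63 ± 0.59 (adjusted p = 0.000162), a fitted 24.8-fold difference. The DEN_KO libraries reached at most 132, against at least 1580 in DEN_WT. For Akr1b3 the log2 fold change was -2.18 ± 0.33 (adjusted p = 0.00042), and its DEN_KO libraries ended at 255, against at least 734 in DEN_WT. Akr1b7 was at -1.01 ± 0.83 (adjusted p = 0.368) with overlapping ranges, and Akr1b8 at 0.18 (adjusted p = 0.622).

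Of the genes that were higher, Akr1c14 had a log2 fold change of 1.26 ± 0.19 (adjusted p = 0.00044), and its lowest DEN_KO library, at 4814, stood above the highest DEN_WT library, at 2588. Akr1c6 was higher by 1.07 ± 0.25 (adjusted p = 0.0054), a call that quantile normalization ended (0.56, adjusted p = 0.0621). Akr1c12 was higher by 0.83 ± 0.19 (adjusted p = 0.0044), again with no overlap between the groups. The Akr1c13 difference of 0.51 ± 0.18 (adjusted p = 0.0387) came with overlapping ranges. That call was lost without DEN_KO replicate 1 or 3, DEN_WT replicate 1 or 2 or KO replicate 1 (adjusted p = 0.0526 to 0.141) and under 5 other settings.

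Akr1c19 and Akr1c20 overlapped between DEN_KO and DEN_WT. Their log2 differences were 0.47 (adjusted p = 0.415) and -0.04 (adjusted p = 0.918), so the 2 genes that fell with DEN were not shown to be higher in DEN_KO than in DEN_WT. Of the markers of other cells, 2 of 7 cholangiocyte, 4 of 7 stellate cell and 1 of 6 endothelial genes were also lower in DEN_KO than in DEN_WT. Higher there were 1 of 7 macrophage and 1 of 3 intestinal genes tested. Over all tested genes 16.4% were higher and 17.4% lower. Of the 8 hepatocyte markers, 4 were higher. The part of these cells in the Akr1b3, Akr1c6, Akr1c14 and Akr1c18 differences was not tested.

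**Figure D3:**
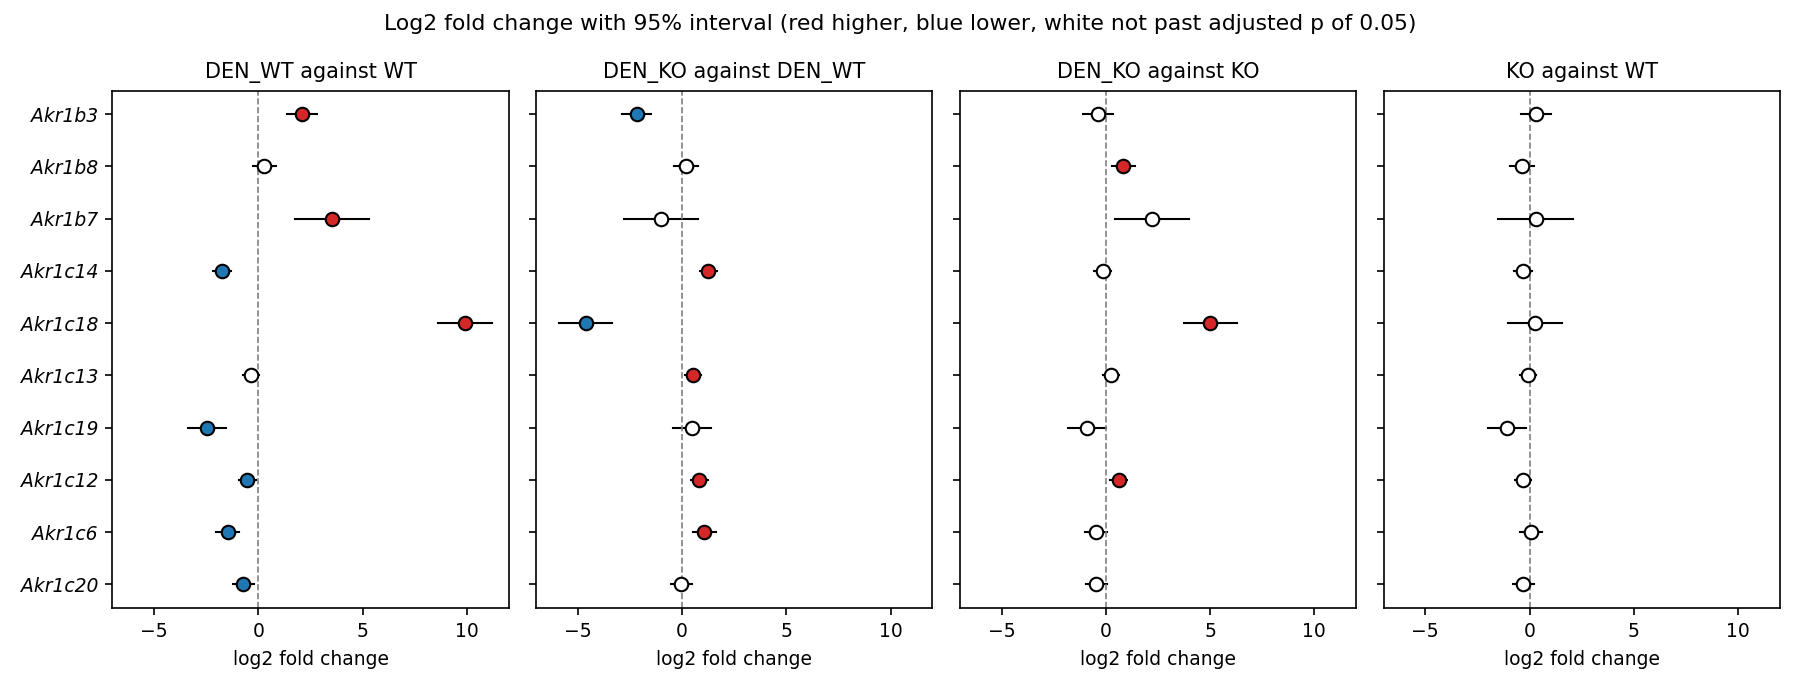
Log2 fold change of each gene (point) with its 95% interval (line) in 4 comparisons, the genes in chromosomal order from top to bottom within Akr1b and then Akr1c. Red marks higher and blue lower in the group named first, at an adjusted p under 0.05, and white did not pass. Akr1c18 reached 9.91 in DEN_WT against WT and -4.63 in DEN_KO against DEN_WT, while neighbouring Akr1c14 had the opposite signs.

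In untreated liver, KO against WT gave 0 of 10 genes past the adjusted threshold, beside 1.16% of all tested genes, and 1 of 10 had an unadjusted p under 0.05, beside 15.1% of all tested genes. That 1 gene was Akr1c19, with 1548, 1913 and 2362 in KO, against 2529, 5306 and 5011 in WT. Its ranges did not overlap, and its log2 fold change was -1.09 ± 0.42 (adjusted p = 0.249). Akr1c12 also had ranges that did not overlap, 851 to 999 in KO and 1036 to 1237 in WT, with a log2 difference of -0.32 (adjusted p = 0.447). The share of all tested genes with such ranges was not counted, so neither separation is read as a difference. The differences of Akr1b7 and Akr1c18 between KO and WT are not read, since both groups were near 0.

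In knockout livers, DEN_KO against KO gave 3 of 10 genes higher, beside 8.91% of all tested genes, and 0 of 10 lower, beside 6.02%. Akr1c18 passed the filter on low values only through DEN-treated libraries, so its place in this count is not independent of the filter. Akr1c18 was higher by a fitted 5.01 ± 0.59 on the log2 scale (adjusted p = 0.000683). The KO values near 0 move this size: it was 5.68 without KO replicate 1, 4.28 without KO replicate 3 and 3.22 with a pseudocount of 8. Akr1b8 was at 58 to 82 in DEN_KO, against 34 to 45 in KO (0.83 ± 0.26, adjusted p = 0.0465), and Akr1c12 at 1097 to 1703, against 851 to 999 (0.61 ± 0.19, adjusted p = 0.0429).

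The calls of Akr1b8 and Akr1c12 in DEN_KO against KO lay close to the threshold, and many settings ended them. Akr1b8 was lost when any DEN_KO or any DEN_WT library, KO replicate 1 or 2 or WT replicate 2 was left out (log2 fold change 0.70 to 0.95, adjusted p = 0.0531 to 0.170), and Akr1c12 without DEN_KO replicate 1 or 3, DEN_WT replicate 1 or 3, any KO library or WT replicate 2 or 3 (0.48 to 0.66, adjusted p = 0.0510 to 0.143). Leaving out a DEN_WT or WT library left the fold itself as it was, at 0.83 and 0.61, and moved only the adjusted p. With all 12 libraries kept, another 4 settings ended the Akr1b8 call (0.63 to 0.83, adjusted p = 0.0729 to 0.106) and 3 the Akr1c12 call (0.61, adjusted p = 0.0651 to 0.0747). Akr1b7 had 10 to 34 in DEN_KO, against 0 to 6 in KO, without passing the threshold (2.23 ± 0.83, adjusted p = 0.0868). Akr1b3, which had risen in DEN_WT against WT, was at -0.39 in DEN_KO against KO (adjusted p = 0.457). Akr1c14 was at -0.16 (adjusted p = 0.614), Akr1c6 at -0.49 (adjusted p = 0.204) and Akr1c19 at -0.92 (adjusted p = 0.163).

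Whether DEN acted differently in the 2 genotypes was tested by the interaction, which subtracts the DEN response of wild-type livers from that of knockout livers. It was past the threshold in 4 genes, with 2 of 10 higher beside 8.73% of all tested genes and 2 of 10 lower beside 7.83%. Akr1c14 had 1.58 ± 0.27 (adjusted p = 0.00316) and Akr1c12 1.15 ± 0.26 (adjusted p = 0.0122). Akr1c18 had -4.90 ± 0.84 (adjusted p = 0.00311), with -4.23 without KO replicate 1 and -5.63 without KO replicate 3. Its untreated values lay near 0, and it passed the filter on low values only through DEN-treated libraries. Akr1b3 had -2.48 ± 0.47 (adjusted p = 0.00464).

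For the remaining genes the interaction did not pass: 0.99 ± 0.35 for Akr1c6 (adjusted p = 0.0685), 1.56 for Akr1c19 (0.0908), 0.60 for Akr1c13 (0.115), 0.54 for Akr1b8 (0.335), -1.30 for Akr1b7 (0.483) and 0.27 for Akr1c20 (0.629). Leaving out DEN_KO replicate 2 took Akr1c6 past the threshold (1.25, adjusted p = 0.0255), and leaving out DEN_WT replicate 3 did so for Akr1c19 (2.02, adjusted p = 0.0298).

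Within groups, the genes varied together to different degrees. Over the 12 deviations from the group means on the log2 scale, Akr1c6 and Akr1c12 had the highest correlation of any pair (r = 0.96), and Akr1b7 and Akr1c13 the lowest (r = -0.657). All values come from the same 12 libraries and share their scaling, and reads of related copies could be shared. These are descriptions with no test.

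For the gene of each family with the widest range of group means, the 5 genes with the most similar log2 values over the 12 libraries were picked from the 16461 other tested genes. For Akr1c18 they included Ifi27l2b, an interferon-inducible gene (r = 0.991), Scd2, a fatty acid desaturase (0.985), Psrc1, a spindle protein (0.983), and Clip2, a microtubule-binding protein (0.980). Scd2 averaged 1423 ± 566 in DEN_KO, 6879 ± 711 in DEN_WT, 106 ± 28.0 in KO and 97.0 ± 15.1 in WT. For Akr1b7 they were Adck4 (r = 0.954), Tgm2, a transglutaminase (0.948), Myo9b, a myosin (0.934), Lama4, a laminin chain (0.933), and Sema4c, a semaphorin (0.931). Tgm2 averaged 4517 ± 1065 in DEN_KO, 7033 ± 1945 in DEN_WT, 2665 ± 703 in KO and 2464 ± 594 in WT. Differences between the group means enter all of these correlations.

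Listed chromatin regions lay at the starts of some of the 10 genes and not of others. A region counts as at the start when it lies within 1000 bases of the gene's outermost start in the table. The Smyd3 list from DEN_WT held such a region for 1 of the 10 genes, beside 64.2% of all tested genes. That gene was Akr1b3, with an 874-base region at chr6:34266981-34267854 over its start. For the other genes the nearest Smyd3 region lay between 19483 bases (Akr1b7) and 358206 bases (Akr1c6) from the start. Within the Akr1c array the list held 1 region, chr13:4074406-4075346, inside Akr1c14 and 26149 bases from its start.

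H3K4me3 regions lay at the start of 6 of the 10 genes in the DEN_KO list, beside 72.4% of tested genes, and of 7 in the DEN_WT list, beside 70.5%. Akr1b3, Akr1c6, Akr1c12, Akr1c13, Akr1c14 and Akr1c20 had one in both lists. Akr1b7 and Akr1b8 had none in either, the nearest being 15974 bases away or more. Akr1c19 had one 4990 bases inside the gene in the DEN_KO list and 5093 bases inside in the DEN_WT list. The counts depend on the start chosen, since RefSeq places the Akr1c19 start further inside the gene, by about the same distance. From the start of Akr1c13 the Akr1c19 start lay 42553 bases away in RefSeq and 37516 bases away in the table.

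Akr1c18 was the 1 gene whose start was in the DEN_WT list alone, as were the starts of 1.72% of tested genes (284). Its region was 1005 bases long, at chr13:4148931-4149935, over the gene start. In the DEN_KO list the nearest region lay 40433 bases upstream, at the start of Akr1c13. Each list has 1 line per region with a score of 0, so presence and extent can be compared, signal strength cannot, and no test of the difference was possible.

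At the 6 starts on both H3K4me3 lists, the region was longer in the DEN_KO list each time, as it was at 67.4% of the 11329 tested gene starts on both lists. It spanned 1558 bases in DEN_KO and 1219 in DEN_WT at Akr1b3, 5497 in DEN_KO and 2170 in DEN_WT at Akr1c6, and 1831 in DEN_KO and 1039 in DEN_WT at Akr1c12. The lengths were 2982 in DEN_KO and 1582 in DEN_WT at Akr1c13, 3675 in DEN_KO and 2243 in DEN_WT at Akr1c14, and 3075 in DEN_KO and 2263 in DEN_WT at Akr1c20. At Akr1c6 the DEN_WT list had a second region of 582 bases that the single DEN_KO region covered. Akr1c14 had further regions inside the gene in both lists, of 4543 and 1656 bases in DEN_KO and 1227 and 194 in DEN_WT. The 4543-base region lay 10218 bases from the outermost start and the 1227-base region 10554 bases. RefSeq places the Akr1c14 start 10577 bases further in, so the length read for this gene depends on the start chosen. The lists themselves differ: the DEN_KO list had 17491 regions with a median length of 1576 bases, and the DEN_WT list 15579 with a median of 1480. Whether the lengths at these genes follow how much was called in each list was not tested. The region of Akr1b3, a gene with lower values in DEN_KO, was also the longer one there.

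**Figure D4:**
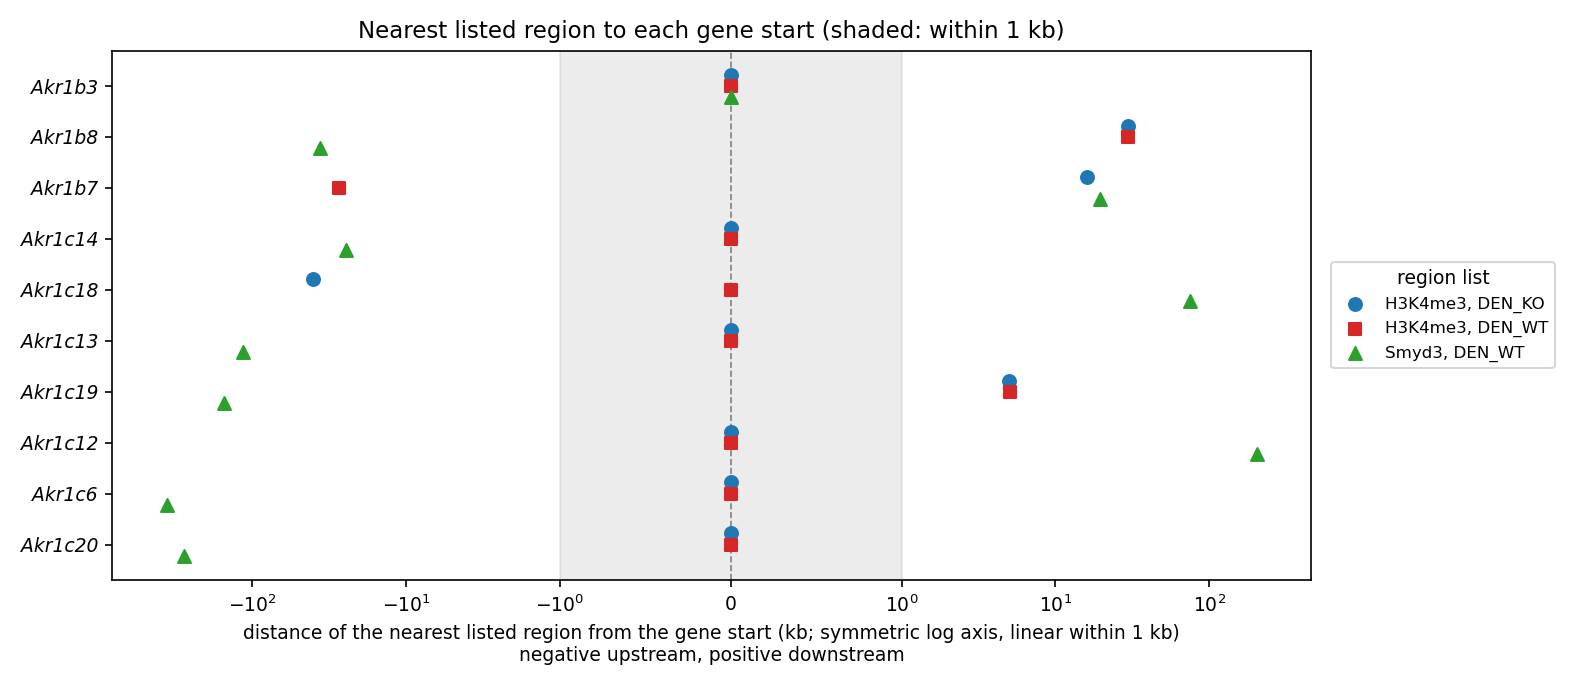
Signed distance in kb from each gene start to the nearest region of the H3K4me3 lists from DEN_KO (circles) and DEN_WT (squares) and of the Smyd3 list from DEN_WT (triangles), on a symmetric log axis that is linear within 1 kb. Negative is upstream, and the shaded band marks 1 kb on each side. Akr1b3 alone has a Smyd3 region at 0, and Akr1c18 alone has a DEN_WT square at 0 with the DEN_KO circle away from it.

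Other members of the aldo-keto reductase superfamily were read beside the 10 genes, with 8 of 11 listed having enough signal to test. In DEN_WT against WT 1 was higher and 2 were lower, beside 16.1% and 13.5% of all tested genes. Akr1a1, an aldehyde reductase, averaged 9108 ± 660 in DEN_KO, 4367 ± 1004 in DEN_WT, 6897 ± 255 in KO and 7211 ± 627 in WT, and was lower in DEN_WT against WT (-0.74, adjusted p = 0.00558) and higher in DEN_KO against DEN_WT (1.08, adjusted p = 0.000572). Akr1d1, a steroid reductase of bile acid synthesis, was lower in DEN_WT against WT (-1.48, adjusted p = 0.00489) and at 0.51 in DEN_KO against DEN_WT (adjusted p = 0.262). Kcnab2, a potassium channel subunit of this fold, was higher in DEN_WT against WT (1.70, adjusted p = 0.0057) and lower in DEN_KO against DEN_WT (-1.49, adjusted p = 0.0113).

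Akr1b10, the neighbour of Akr1b7 and Akr1b8, had values of 16, 29 and 34 in DEN_KO, 64, 40 and 45 in DEN_WT, 15, 24 and 29 in KO and 21, 15 and 33 in WT. Its DEN_WT libraries lay above all others, and the log2 fold change against WT was 1.12 (adjusted p = 0.0507), just short of the threshold. Akr1e1 (0.87, adjusted p = 0.216), Akr7a5 (-0.57, 0.0755), Kcnab1 (0.04, 0.970) and Kcnab3 (1.11, 0.172) did not pass in DEN_WT against WT either.

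Genes of the pathways in which these enzymes work were read from lists. Of all tested genes, 16.1% were higher and 13.5% lower in DEN_WT against WT. In DEN_KO against DEN_WT 16.4% were higher and 17.4% lower. These shares stand beside the counts of every list that follows. Of 19 other steroid dehydrogenases and reductases, 2 were higher and 11 lower in DEN_WT against WT (median log2 -0.98), and 7 were higher and 2 lower in DEN_KO against DEN_WT (median 0.18). Hsd3b5, a male-biased steroid dehydrogenase of mouse liver, averaged 3846 ± 2076 in DEN_KO, 2217 ± 1139 in DEN_WT, 9435 ± 1145 in KO and 17560 ± 1498 in WT (DEN_WT against WT -3.16, adjusted p = 0.000107). Hsd3b6 was lower in DEN_WT against WT (-1.74, adjusted p = 0.00822) and higher in DEN_KO against DEN_WT (2.03, adjusted p = 0.00327). Hsd17b13, a lipid droplet enzyme (1.18, adjusted p = 0.00834), and Srd5a3, a polyprenol reductase (0.95, adjusted p = 0.0115), were higher in DEN_WT against WT.

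Of 4 other polyol and fructose genes tested, 0 were higher and 1 was lower in DEN_WT against WT. That was Sord, sorbitol dehydrogenase, which takes the product of aldose reductase on to fructose. It averaged 14700 ± 3585 in DEN_KO, 8369 ± 4181 in DEN_WT, 16800 ± 679 in KO and 25690 ± 9105 in WT (DEN_WT against WT -1.69, adjusted p = 0.00247). In DEN_KO against DEN_WT it was at 0.91 (adjusted p = 0.0553). Thus Akr1b3 and Sord, which act one after the other, had opposite signs in DEN_WT against WT.

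Among 16 other carbonyl and aldehyde enzymes tested, 2 were higher and 11 lower in DEN_WT against WT (median -0.79), and 11 were higher and 1 lower in DEN_KO against DEN_WT (median 1.21). Aldh1a1, a retinal dehydrogenase, was lower in DEN_WT against WT (-2.10, adjusted p = 5.75e-05) and higher in DEN_KO against DEN_WT (1.45, adjusted p = 0.000905). Adh4, an alcohol dehydrogenase, had -2.35 (adjusted p = 1.89e-05) and 1.29 (adjusted p = 0.00156) in these comparisons, and was the 1 gene of the list lower in KO against WT (-1.19, adjusted p = 0.034). Aldh1b1, a mitochondrial aldehyde dehydrogenase, had the reverse pattern, with 2.25 (adjusted p = 1.42e-06) and -1.26 (adjusted p = 0.000142). Aldh3b1 was also higher in DEN_WT against WT (1.39, adjusted p = 0.00693).

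Of 12 genes of prostaglandin synthesis and breakdown, 2 were higher and 4 lower in DEN_WT against WT (median 0.15). The shares of all tested genes there were 16.1% and 13.5%. In DEN_KO against DEN_WT 1 was higher and 2 lower (median 0.01), beside 16.4% and 17.4%. Ptgr1, a prostaglandin reductase, was higher in DEN_WT against WT (2.78, adjusted p = 1.69e-05) and lower in DEN_KO against DEN_WT (-1.21, adjusted p = 0.00556), as was Ptges, prostaglandin E synthase (1.75, adjusted p = 0.00214, and -1.43, adjusted p = 0.00701). Hpgd, which breaks prostaglandins down (-1.07, adjusted p = 0.0286), and Ptgds, prostaglandin D synthase (-2.04, adjusted p = 0.0145), were lower in DEN_WT against WT.

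Several Akr1b and Akr1c genes are known targets of NRF2, the regulator of the antioxidant response. Of 16 genes on the list of NRF2 and its targets, 2 were higher and 5 lower in DEN_WT against WT (median 0.19). The shares of all tested genes there were 16.1% and 13.5%. In DEN_KO against DEN_WT 7 were higher and 2 lower (median 0.50), beside 16.4% and 17.4%. G6pdx, which supplies NADPH, averaged 184 ± 8.19 in DEN_KO, 622 ± 83.7 in DEN_WT, 112 ± 58.4 in KO and 67.7 ± 25.4 in WT. It was higher in DEN_WT against WT (3.24, adjusted p = 1.81e-05) and lower in DEN_KO against DEN_WT (-1.74, adjusted p = 0.00164). Srxn1, a sulfiredoxin, was higher in DEN_WT against WT (1.59, adjusted p = 0.00451). Gsta1 and Gsta2, glutathione transferases, were lower in DEN_WT against WT (-1.90, adjusted p = 0.0259, and -2.96, adjusted p = 4.27e-05) and higher in DEN_KO against DEN_WT (2.97, adjusted p = 0.0021, and 3.14, adjusted p = 6.33e-05). The list therefore held genes with each of the patterns seen in Akr1c18 and Akr1c14.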

How the data were processed

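Mouse liver RNA was measured in 12 libraries, and chromatin immunoprecipitation gave 3 region lists. The submitters' processing notes name mm9, Bowtie2, TopHat2 2.0.9, DESeq, cutadapt and Cufflinks, with no stated role. Strand use, the annotation release, the peak caller and the counting tool are not given. The deposited expression value is a score, a normalized read count in whole numbers per the labels. How the authors normalized it is not given in the sources used here, and median-ratio factors recomputed from it were 0.999 to 1.00. A GC fraction stands beside each gene in the deposited table, per the file headers, and was not used. The deposited region lists give starts, ends and a score of 0 in every line, and whether the authors pooled the 2 replicates is not stated. The RNA polymerase II and input libraries were not analysed here.

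A count test needs raw counts, so none was used on these normalized values. The main test was limma 3.58.1 (R 4.3.3), fitted to log2(value + 1) for 16471 genes with at least 10 in at least 3 libraries. A single model of the 4 groups had 8 residual degrees of freedom and a trended spread, and p-values were Benjamini-Hochberg adjusted over all tested genes, with a threshold of 0.05. A fold change on this scale understates low genes. An exact test of 3 against 3 libraries cannot go below p = 0.10. The script was tested on simulated data. Depth per gene is unknown from rounded values, so no counting interval is given. Errors of group means are SD over 3 mice. Errors of log2 fold changes are the SE from the model, whose spread is shared by the 4 groups. The chi-square between replicates, per degree of freedom, was 32.1 or more, and no library looked to be a copy of another. Levels were not compared between genes, since no transcript lengths were used.

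The genes and lists were chosen with earlier results of these data known. All 10 genes are named, with every tested gene of the superfamily list. Of each other list, the text names up to 2 genes with the largest and 2 with the smallest log2 fold change past the threshold in DEN_WT against WT, and the 5 tested genes most like the most variable gene of each family, except 1 that is not reported here. Upstream sequences were aligned in Biopython 1.88. Alternatives covered the pseudocount, filter, scaling, trend, groups fitted, replicate block and each library left out.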

Additional observations from a re-analysis of the deposited data

Results flagged for a closer look

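The DEN effect differed between the genotypes by limma's test of the difference itself in 4 of the 10 genes. Of the 10, 2 were higher, beside 8.73% of all tested genes, and 2 lower, beside 7.83%. The DEN response of knockout livers minus that of wild-type livers was -4.90 on the log2 scale for Akr1c18 (adjusted p = 0.00311) and -2.48 for Akr1b3 (adjusted p = 0.00464). It was 1.58 for Akr1c14 (adjusted p = 0.00316) and 1.15 for Akr1c12 (adjusted p = 0.0122). Akr1c18 lay near 0 in untreated livers and passed the filter on low values only through DEN-treated libraries. By the same test, 2 of 8 hepatocyte markers had a higher DEN response in knockout livers, Ttr (1.75, adjusted p = 0.0192) and Fah (0.99, adjusted p = 0.0335). Of the cholangiocyte markers 1 of 7 and of the stellate cell markers 3 of 7 had a lower one, of the 3 intestinal markers 1 had a higher one, and of the endothelial, macrophage, adrenal and pancreas markers tested 0 passed. The part of these cells in the 4 differences was not tested.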

How the results depend on the processing

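Each of 50 log2 fold changes was recomputed under up to 20 alternatives, 990 values in all, of which 919 kept their direction and their side of the threshold, 56 lost a call, 3 gained one and 12 changed sign. Calls held under every alternative for Akr1b3, Akr1b7, Akr1c6, Akr1c14, Akr1c18 and Akr1c19 in DEN_WT against WT, for Akr1b3, Akr1c12, Akr1c14 and Akr1c18 in DEN_KO against DEN_WT and in the interaction, and for Akr1c18 in DEN_KO against KO. The count of genes past the threshold in DEN_KO against KO was 1 with no filter and with the 2 groups fitted alone, against 3. The cause was not tested. Leaving out each library gave counts of 6 to 8 in DEN_WT against WT, 5 to 6 in DEN_KO against DEN_WT, 0 in KO against WT, 1 to 3 in DEN_KO against KO and 4 to 5 in the interaction. Signs turned in 12 of the recomputed values, none past the threshold: with quantile normalization, Akr1b8 in DEN_WT against WT (-0.12). Dividing by the library sum without the 10 highest genes turned Akr1c13 in DEN_WT against WT (0.032) and in KO against WT (0.019), Akr1b8 in DEN_KO against DEN_WT (-0.034) and Akr1c20 in the interaction (-0.062). Leaving out each library in turn gave Akr1c20 -0.15 to 0.11 in DEN_KO against DEN_WT (above 0 without DEN_KO replicate 2 or DEN_WT replicate 3). In KO against WT it gave Akr1b7 -0.18 to 1.22 (below 0 without KO replicate 1 or 2), Akr1c18 -0.40 to 1.00 (below 0 without KO replicate 1), Akr1b3 -0.16 to 0.54 and Akr1c6 -0.060 to 0.16 (both below 0 without WT replicate 1). That library-sum scaling moved the median log2 fold change of all tested genes in DEN_WT against WT to 0.36, against -0.02 as deposited, and in DEN_KO against DEN_WT to -0.27, against -0.06, where 30.7% of called genes were higher, against 48.6% as deposited. Same-numbered libraries did not deviate together (r = -0.10 to 0.12). With 3 libraries a group this cannot settle whether the numbers pair the mice. With the replicate block, the counts were 8, 6, 0, 2 and 5 in the 5 comparisons, Akr1b8 in DEN_KO against KO lost its call (adjusted p = 0.0729) and the Akr1c19 interaction passed (1.56, adjusted p = 0.0395). Counts of genes with a region at their start held within 500 and 5000 bases and at an overlap of 200 bases, except 7 in the H3K4me3 list from DEN_KO within 5000 bases. Depth per gene is unknown, values of Akr1b7 and of untreated Akr1c18 lie near 0, and how the authors assigned reads of similar Akr1c copies was not examined.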
